A study of Mus musculus with 6 samples.

Results

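Of the 51499 loci in the count table, 55 carry the name of a gene that makes, receives, limits or relays a Wnt signal, and their transcripts are described here after acute depletion of YME1L, a protease of the mitochondrial inner membrane. The genes were taken by name and not by measured values, although earlier results of these data were known when they were chosen. They comprise 19 Wnt ligands, 10 Frizzled receptors, 4 co-receptors, 9 secreted antagonists of the Sfrp, Dkk and Wif families, 3 R-spondins with 2 ubiquitin ligases, 4 genes of β-catenin and its destruction complex, and 4 TCF/LEF factors. The cells were WT mouse embryonic fibroblasts (MEFs), which per the methods are a clone with a floxed *Yme1l* allele (Yme1l loxP/loxP) that was not recombined. The methods name SV40 large T antigen as the immortalizing agent, whereas the labels name 3T3. Cells received a scrambled siRNA (Scr) or Yme1l siRNA in 1 treatment each, and poly(A) RNA was sequenced 72 h later from 3 independent cultures per group. The p-values cover the spread between cultures of 1 clone and 1 treatment per target.

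Wnt proteins are lipid-modified signals that bind Frizzled receptors on nearby cells. With LRP5 or LRP6 as co-receptor, they stop the destruction complex of AXIN and APC from marking β-catenin for degradation, and β-catenin then activates genes together with TCF/LEF factors. Other ligands, of which WNT5A is the best known, act through ROR1, ROR2 and the planar cell polarity proteins without β-catenin. Fibroblasts are a common source of Wnt ligands and R-spondins for neighbouring cells.

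The 6 libraries held between 37260605 and 45205207 counts. The unit of levels is CPM (library sizes scaled by TMM), and where different genes are compared it is CPM per kb of annotated exon. The groups were compared with edgeR's quasi-likelihood test, and all adjusted p-values below come from that test with Benjamini-Hochberg adjustment over the 14499 loci tested. Errors are SD with n = 3, and SE denotes the standard error of a fold change on the log2 scale. The target, *Yme1l1*, fell from 171 ± 0.425 to 33.4 ± 10.9 CPM, a log2 fold change of -2.36 (SE 0.20, adjusted p = 3.87e-05). Of 7 tested fibroblast markers, 6 were lower after depletion, beside 29.6% of all loci tested. The fibroblast list summed to between 33541 and 40636 CPM in Scr cultures and between 17980 and 22389 CPM in Yme1l siRNA cultures. *Thy1*, a further fibroblast marker, had at most 1 count in any library. The epithelial list summed to between 0.115 and 0.194 CPM in Scr and between 0.831 and 1.33 CPM in Yme1l siRNA cultures, the endothelial list to between 3.79 and 4.08 CPM and between 5.68 and 7.81 CPM, and the muscle list to between 3.30 and 3.77 CPM and between 2.40 and 3.497 CPM. The immune list summed to between 162 and 178 CPM in Scr and between 241 and 254 CPM in Yme1l siRNA cultures, most of it from *Csf1r*, and the neural list to between 46.4 and 50.8 CPM and between 55.6 and 62.8 CPM. The markers *Krt5*, *Emcn*, *Adgre1*, *Cd3e*, *Sox10*, *Myod1*, *Myog* and *Pax7* had 0 counts throughout. The part of these shifts in the results below was not tested, and in bulk RNA fewer cells that express a gene and less RNA per cell cannot be told apart. Transcripts encoded by mtDNA took 4.11% and 3.92% of the counts in Scr replicates 1 and 2, which stood apart from Scr replicate 3 (2.196%) and the Yme1l siRNA libraries (2.00% to 2.14%).

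Of the 55 genes, 35 passed the filter on low counts, and 11 of these were higher and 9 lower after *Yme1l* knockdown. These 20 are 57.1% of the genes tested, beside 58.0% of all loci tested (28.4% higher and 29.6% lower), so the family was called about as often as loci in general. At least 2-fold changes were found for 9 genes (25.7%, beside 15.5% of all loci), 5 of them higher and 4 lower, where 8.18% of all loci were higher and 7.28% lower by that much. Scr and Yme1l siRNA levels did not overlap for 20 genes (57.1%), beside 65.4% of all loci. The median log2 fold change was -0.02 over the 35 genes and 0.01 over all loci, with a range from -1.87 for *Rspo3* to 2.06 for *Wnt10b*. Called genes went in both directions among ligands, Frizzled receptors, co-receptors, antagonists, R-spondins with ligases, and the β-catenin group. *Wnt10b* and *Sfrp1* passed the filter only through the Yme1l siRNA libraries, where they were high. They are 2 of the 5 genes higher by at least 2-fold, so the share of 25.7% and the top of the range rest in part on that filter.

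Among the ligands, *Wnt7b* and *Wnt10b* were higher and *Wnt5b* was lower, while the most abundant ligand, *Wnt5a*, did not pass the threshold. *Wnt7b*, whose product signals through β-catenin in lung and brain vessel development, lies on chromosome 15 from 85535437 to 85582473 (GRCm38, minus strand). Its level was 2.54, 2.49 and 2.82 CPM in the Scr cultures and 6.47, 6.56 and 7.17 CPM in the Yme1l siRNA cultures. Every Yme1l siRNA culture was above every Scr culture and the cultures of a group lay close together. The log2 fold change was 1.36 (SE 0.14, adjusted p = 7.59e-05), a 2.57-fold rise. *Wnt10b*, a ligand known for holding back fat cell formation, is on chromosome 15 from 98770712 to 98778150. Its counts were 5, 5 and 4 in Scr and 22, 31 and 11 in Yme1l siRNA libraries, so its rise rests on few reads although the groups did not overlap. Its log2 fold change was 2.06 (SE 0.48, adjusted p = 0.00590).

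*Wnt5a*, on chromosome 14 from 28504750 to 28527448, encodes a ligand that acts largely without β-catenin. It was measured at 36.1, 34.8 and 34.4 CPM in Scr and 39.4, 40.9 and 33.9 CPM in Yme1l siRNA cultures. The groups overlapped, because the lowest Yme1l siRNA culture lay below all Scr cultures, and the log2 fold change was 0.12 (SE 0.08, adjusted p = 0.254). Its close relative *Wnt5b* fell from 3.53 ± 0.758 to 1.94 ± 0.354 CPM, with a log2 fold change of -0.86 (SE 0.22, adjusted p = 0.0101) and no overlap. *Wnt11*, another ligand of the β-catenin-independent branch, lay between 7.54 and 9.92 CPM in Scr and between 10.4 and 11.02 CPM in Yme1l siRNA cultures, but its log2 fold change of 0.30 did not pass the threshold (adjusted p = 0.0661). It was called without Scr replicate 2 (log2 fold change 0.39, adjusted p = 0.0368). *Wnt4*, *Wnt6* and *Wnt9a* were also not called, with log2 fold changes from -0.48 to -0.10.

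Per kb of exon, the 19 ligands together gave 10.01 ± 0.432 CPM per kb in Scr and 11.2 ± 0.893 CPM per kb in Yme1l siRNA cultures. *Wnt5a* made up 44.9% ± 1.63 of this sum in Scr and 43.6% ± 1.99 in Yme1l siRNA cultures. *Wnt11* followed with 21.0% and 23.3%. *Wnt5b* and *Wnt7b* changed places, since *Wnt5b* went from 13.2% ± 2.39 to 6.51% ± 0.696 and *Wnt7b* from 5.36% ± 0.605 to 12.4% ± 1.57 of the ligand sum. *Wnt9a* held 11.5% ± 2.68 and 9.43% ± 0.942. These shares describe the libraries and were not tested.

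Of the 11 ligands that were not tested, *Wnt3a*, *Wnt7a*, *Wnt9b* and *Wnt16* had 0 counts in all 6 libraries, which allows a level of up to 0.0831 CPM in the shallowest of them. *Wnt2*, *Wnt2b*, *Wnt8a* and *Wnt8b* had at most 3 counts in any library, and *Wnt3* and *Wnt10a* at most 4. *Wnt1*, the founding member of the family, had 1, 3 and 2 counts in Scr and 12, 8 and 5 counts in Yme1l siRNA libraries. All its Yme1l siRNA counts were above all its Scr counts, but they stayed under the filter and no test was made.

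The Frizzled receptors changed in opposite directions. *Fzd1* and *Fzd2*, the receptors with the highest levels per kb of exon in Scr cultures, were both lower, and *Fzd5*, *Fzd3* and *Fzd7* were higher. *Fzd1*, a gene on chromosome 5 (4753839 to 4758035, minus strand), had 72.0, 61.0 and 42.8 CPM in Scr and 24.0, 24.7 and 18.9 CPM in Yme1l siRNA cultures. Its Scr cultures were spread, with replicate 3 lowest, yet each stayed above all Yme1l siRNA cultures. Its log2 fold change was -1.38 (SE 0.18, adjusted p = 0.000332), or 2.60-fold lower. *Fzd2*, on chromosome 11 from 102604396 to 102608058, belongs with *Fzd1* and *Fzd7* to the same subfamily of receptors. It had 59.3, 53.2 and 53.3 CPM in Scr and 25.8, 24.6 and 27.5 CPM in Yme1l siRNA cultures, with little spread in either group. Its log2 fold change of -1.09 (SE 0.08, adjusted p = 1.63e-05) had the smallest adjusted p of the 35 genes.

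*Fzd5*, on chromosome 1 from 64730558 to 64737751, encodes a receptor required for yolk sac vessels and for gut Paneth cells. Its level was 11.3, 10.9 and 9.55 CPM in Scr and 22.4, 24.2 and 17.9 CPM in Yme1l siRNA cultures. All Yme1l siRNA cultures were above all Scr cultures, and the log2 fold change was 1.02 (SE 0.13, adjusted p = 0.000248). *Fzd7*, on chromosome 1 from 59482424 to 59486955, had the highest mean CPM of the receptors over all 6 libraries, without scaling by exon length. Per kb of exon it had 10.1 CPM in Scr and 11.6 CPM in Yme1l siRNA cultures, beside 15.1 and 7.09 CPM for *Fzd2*. The Scr mean of *Fzd7* lay below those of *Fzd1* and *Fzd2*. Its level was 47.6, 45.9 and 44.2 CPM in Scr and 52.3, 51.5 and 53.9 CPM in Yme1l siRNA cultures. The groups did not overlap, but the difference was small (log2 fold change 0.20, SE 0.06, adjusted p = 0.0244), and 5 of the 6 fits on 5 cultures did not call it (highest adjusted p = 0.0789, without Scr replicate 2). *Fzd3*, which guides axons through planar polarity signalling, rose by 0.40 on the log2 scale (SE 0.11, adjusted p = 0.0132), and this call was lost without Scr replicate 1 (adjusted p = 0.0561). *Fzd4*, *Fzd8* and *Fzd9* had log2 fold changes of -0.01, -0.22 and 0.39 and did not pass the threshold. *Fzd6* had at most 2 counts and *Fzd10* had 0 counts in every library.

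The summed level of the 10 receptors was 51.0 ± 5.45 CPM per kb in Scr and 37.2 ± 1.44 CPM per kb in Yme1l siRNA cultures. *Fzd1* and *Fzd2* together gave 59.2%, 56.8% and 54.5% of that sum in the Scr cultures and 33.4%, 33.4% and 33.8% in the Yme1l siRNA cultures. The cultures of each group were thus close to each other and the groups were far apart. *Fzd7* went from 20.0% ± 1.42 to 31.2% ± 1.94, so that it had the highest level of the receptors per kb of exon after depletion, at 11.6 ± 0.274 CPM per kb. *Fzd5* went from 3.01% ± 0.0907 to 8.34% ± 0.987. *Fzd8* held 12.2% ± 0.272 and 14.3% ± 1.96. As with the ligands, these shares are descriptions.

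All 4 co-receptors were called, 2 in each direction, beside 58.0% of all loci tested (28.4% higher and 29.6% lower). *Lrp6* (chromosome 6, 134446476 to 134566965), whose product takes up the Wnt signal beside Frizzled, had 130, 120 and 137 CPM in Scr and 168, 159 and 153 CPM in Yme1l siRNA cultures. The groups did not overlap, and its log2 fold change was 0.31 (SE 0.08, adjusted p = 0.00797). *Lrp5*, the second receptor of this type, had the opposite sign, at 119 ± 3.68 CPM in Scr and 100.1 ± 8.17 CPM in Yme1l siRNA cultures (log2 fold change -0.24, SE 0.08, adjusted p = 0.0260). It was not called in 4 of the 6 fits on 5 cultures (highest adjusted p = 0.0858, without Scr replicate 1).

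The receptor tyrosine kinases of the β-catenin-independent branch also differed in sign. *Ror1*, on chromosome 4 from 100095791 to 100444765, had 1.85, 1.75 and 1.56 CPM in Scr and 0.744, 0.598 and 0.831 CPM in Yme1l siRNA cultures, without overlap. It was 2.37-fold lower, with a log2 fold change of -1.24 (SE 0.22, adjusted p = 0.00148). *Ror2*, which binds WNT5A, rose from 4.65 ± 0.517 to 7.004 ± 0.805 CPM (log2 fold change 0.59, SE 0.15, adjusted p = 0.00870). Per kb of exon, *Ror2* stood at 1.65 ± 0.190 and *Ror1* at 0.126 ± 0.0204 CPM per kb after depletion.

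Among the secreted antagonists, *Dkk3* dominated and was not called. *Dkk3*, on chromosome 7 from 112116017 to 112159057, is a divergent member of the Dickkopf family that does not bind LRP6 as its relatives do. It had 325, 296 and 204 CPM in Scr and 250, 250 and 189 CPM in Yme1l siRNA cultures. Replicate 3 was the lowest of each group and the groups overlapped, and the log2 fold change was -0.26 (SE 0.18, adjusted p = 0.227). Without Scr replicate 3 it was -0.44 and was called (adjusted p = 0.0243). Per kb of exon it gave 95.6% of the antagonist sum in each group.

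The SFRP proteins resemble the Wnt-binding part of Frizzled and can capture Wnt ligands. *Sfrp1* (chromosome 8, 23411502 to 23449632) was counted 3, 8 and 8 times in Scr and 34, 38 and 11 times in Yme1l siRNA libraries. The groups did not overlap, but Yme1l siRNA replicate 3 was close to the Scr libraries. The log2 fold change was 1.99 (SE 0.56, adjusted p = 0.0146), and without Scr replicate 1 the call was lost (adjusted p = 0.0531). *Sfrp2*, on chromosome 3 from 83766321 to 83774316, had 1.62, 0.942 and 0.498 CPM in Scr and 1.78, 2.76 and 1.90 CPM in Yme1l siRNA cultures. Its highest Scr culture came close to its lowest Yme1l siRNA culture. The log2 fold change was 1.07 (SE 0.39, adjusted p = 0.0420), and 4 of the 6 fits on 5 cultures did not call it (highest adjusted p = 0.124, without Yme1l siRNA replicate 2). *Sfrp2* overlaps *Gm26771* on the other strand, which had between 5 and 18 counts where *Sfrp2* had between 21 and 120, and whether reads were counted by strand is not stated in the sources used here.

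*Sfrp4* had the opposite sign, at 13.9 ± 4.29 CPM in Scr and 8.23 ± 2.42 CPM in Yme1l siRNA cultures. Its groups overlapped, and the log2 fold change of -0.76 (SE 0.27, adjusted p = 0.0404) was not called in 4 of the 6 fits on 5 cultures (highest adjusted p = 0.135, without Scr replicate 1). *Dkk1*, an inhibitor of LRP6 that is itself a β-catenin target, *Dkk4* and *Sfrp5* had 0 counts in every library. *Dkk2* had at most 3 counts in any library and *Wif1*, a secreted binder of Wnt ligands, at most 10.

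The gene with the largest fall of the 35 was *Rspo3*. R-spondins raise Wnt signalling by withdrawing the ubiquitin ligases ZNRF3 and RNF43 from Frizzled, whose turnover these ligases promote. *Rspo3*, on chromosome 10 from 29452416 to 29535867, had 7.32, 5.99 and 4.38 CPM in Scr and 1.65, 2.16 and 1.02 CPM in Yme1l siRNA cultures. Every Scr culture was above every Yme1l siRNA culture, and replicate 3 was again the lowest of each group. The level was 3.66-fold lower after depletion, with a log2 fold change of -1.87 (SE 0.29, adjusted p = 0.000745). *Gm48159* lies on the other strand of *Rspo3* in the annotation and has no value here.

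*Rspo1* and *Rspo2* were not called with all 6 cultures. *Rspo1*, on chromosome 4 from 124986430 to 125009099, had 44.5, 44.5 and 45.0 CPM in Scr and 38.8, 36.0 and 46.6 CPM in Yme1l siRNA cultures. The highest Yme1l siRNA culture exceeded all Scr cultures, and the log2 fold change was -0.14 (SE 0.10, adjusted p = 0.235). Without that culture, Yme1l siRNA replicate 3, it was -0.26 and was called (adjusted p = 0.0159). *Rspo2* had a log2 fold change of -0.46 (SE 0.33, adjusted p = 0.260), with replicate 3 lowest in each group, and was called without replicate 3 of both groups (-0.49, adjusted p = 0.00617). *Rspo1* gave 85.7% of the summed R-spondin level per kb of exon in Scr and 91.2% in Yme1l siRNA cultures, and *Rspo3* 7.05% and 2.34%. *Znrf3*, on chromosome 11 from 5276324 to 5444847, encodes 1 of the ligases and is also a target of β-catenin. It rose from 19.7, 20.2 and 19.5 CPM to 29.6, 28.4 and 28.4 CPM, with a gap between groups far wider than the spread within them (log2 fold change 0.54, SE 0.07, adjusted p = 0.000256). *Rnf43*, the other ligase, had at most 5 counts in any library.

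β-Catenin itself was lower and *Axin1* higher. *Ctnnb1* (chromosome 9, 120929216 to 120960507), the most abundant of the 55 genes per kb of exon, fell from 1107 ± 15.7 to 730 ± 16.2 CPM. The individual cultures lay between 1090.3 and 1122 CPM in Scr and between 711 and 741 CPM in Yme1l siRNA, without overlap. The log2 fold change was -0.60 (SE 0.07, adjusted p = 0.000145). *Axin1*, the scaffold of the destruction complex, lies on chromosome 17 from 26138688 to 26195811. It had 137, 134 and 134 CPM in Scr and 206, 205 and 210 CPM in Yme1l siRNA cultures. The groups stood apart with little spread, and the log2 fold change was 0.62 (SE 0.06, adjusted p = 7.28e-05), a 1.53-fold rise. *Apc*, the other scaffold, had 201 ± 16.997 and 197 ± 27.99 CPM (log2 fold change -0.02, adjusted p = 0.873). *Axin2*, a widely used readout of β-catenin activity, was under the filter, with 13, 8 and 2 counts in Scr and 10, 10 and 10 counts in Yme1l siRNA libraries. The Yme1l siRNA counts of *Axin2* lay within the range of the Scr counts.

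Of the TCF/LEF factors, which bring β-catenin to DNA, *Tcf7l1* was called and the other 3 were not. *Tcf7l1* (chromosome 6, 72626378 to 72789254), the member that mostly represses its targets, had 41.0, 35.4 and 35.8 CPM in Scr and 30.1, 32.7 and 28.0 CPM in Yme1l siRNA cultures. The groups did not overlap, and the log2 fold change was -0.31 (SE 0.09, adjusted p = 0.0174). Leaving out 1 culture removed the call in 2 of 6 fits (highest adjusted p = 0.0679, without Scr replicate 1). *Lef1*, *Tcf7* and *Tcf7l2* had log2 fold changes of -0.30, 0.01 and 0.07 (adjusted p = 0.382, 0.950 and 0.590). *Lef1* was called without replicate 3 of both groups (-0.73, adjusted p = 0.0259).

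**Figure D1:**
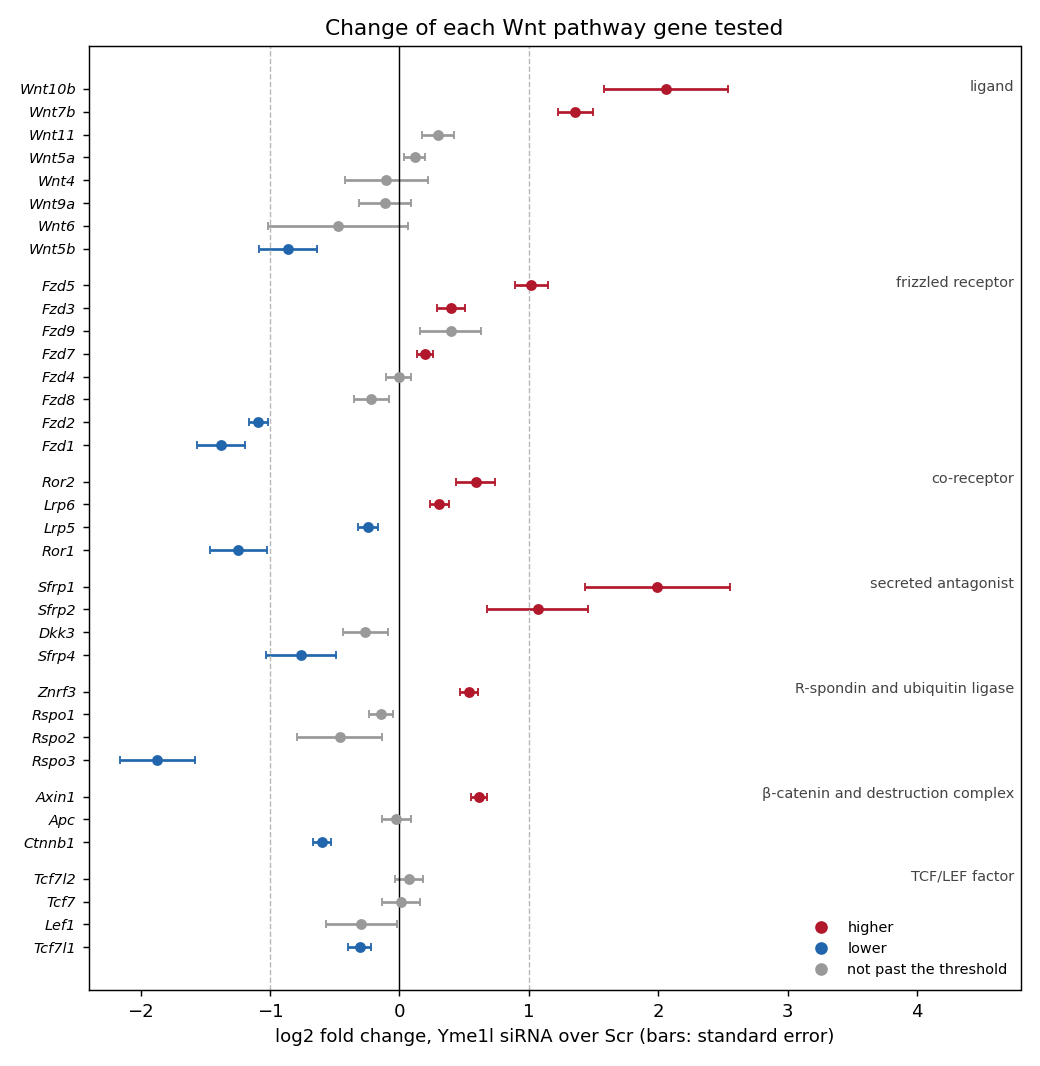
Log2 fold change of Yme1l siRNA over Scr cultures for the 35 genes tested, ordered by role, with bars for the standard error and dashed lines at a 2-fold change. Points past the threshold are coloured by direction, from -1.87 for *Rspo3* to 2.06 for *Wnt10b*, and higher and lower genes occur side by side in every role but the TCF/LEF factors.

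TCF/LEF factors bind DNA words such as CTTTGAA and CTTTGAT. These words were searched on both strands in the promoter windows of RefSeq (GRCm38.p6), which run from 250 bases before to 50 bases after a gene start. Windows were found for 36 of the 55 genes, 46 in all, and 3 of the 46 windows (6.52%) held a word, beside 2842 of 32851 windows of all genes (8.65%). Of the 9 genes that changed at least 2-fold, 5 had a window and none of their windows held a word. The 3 matches are shown because they are the only ones in the 46 windows searched, with the word in capitals, 5′ to 3′ along the strand of the gene. The match of *Wnt5b*, which was lower after depletion, lies at chr6:119449440-119449468 (minus strand) and 71 bases before 1 of 3 starts. That of *Wnt11* lies at chr7:98835050-98835078 (plus strand), with the word on the opposite strand, and that of *Dkk1*, which had no counts, at chr19:30549596-30549624 (minus strand).
Wnt5b: agtaagtctctCTTTGATctgctccctgt
Wnt11: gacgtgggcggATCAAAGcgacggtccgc
Dkk1: tcctcccaaagCTTTGAAatcccatcccg
A match is a description of the letters, and binding was not measured.

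Further genes of the pathway were grouped into 4 lists by role, which partly overlap. The β-catenin target list also holds *Axin2*, *Lef1*, *Tcf7*, *Znrf3*, *Rnf43* and *Dkk1*, which are described above. *Apcdd1*, *Notum* and *Lgr5* stand in both the secretion and the target list, so a gene can be counted in more than 1 list. Of 24 genes for ligand secretion and the cell surface, 17 were tested, and 2 were higher and 10 lower (70.6% called, beside 58.0% of all loci, 28.4% higher and 29.6% lower), with a median log2 fold change of -0.30. Among the lower genes, *Gpc1* was not called in 5 of the 6 fits on 5 cultures (highest adjusted p = 0.114, without Yme1l siRNA replicate 1). *Wls*, the carrier that takes Wnt proteins to the cell surface, fell from 581 ± 62.1 to 360 ± 37.7 CPM (log2 fold change -0.69, SE 0.11, adjusted p = 0.000741). *Porcn*, the enzyme that attaches their lipid, had a log2 fold change of -1.04 (adjusted p = 0.0262) that was not called without Scr replicate 2 (adjusted p = 0.104) or Yme1l siRNA replicate 2, and *Lgr4*, a receptor for R-spondins, of -0.48 (adjusted p = 0.00505). *Trabd2b*, a protease that cleaves Wnt proteins, fell from 15.1 to 5.89 CPM (log2 fold change -1.36, adjusted p = 0.000503). *Apcdd1*, a membrane inhibitor of Wnt signalling, rose from 6.81 ± 0.409 to 15.01 ± 1.95 CPM (log2 fold change 1.14, adjusted p = 0.000107). The genes that were lower thus included both producers and inhibitors of the signal.

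Of 31 genes for transduction in the cytoplasm and nucleus, 30 were tested, and 1 (*Nlk*) was higher and 23 were lower, beside 28.4% and 29.6% of all loci, with a median of -0.45. When each library was left out in turn, between 17 and 22 genes were lower. *Dvl2*, *Csnk1d* and *Ctnnbip1* each lost the call in 5 of these 6 fits. *Nlk* was not called without Scr replicate 1 (adjusted p = 0.0592) or Scr replicate 2. The 3 genes of the list with the smallest adjusted p were nuclear partners of β-catenin and TCF. *Pygo1*, a co-activator, fell from 4.10 to 0.831 CPM (log2 fold change -2.30, adjusted p = 4.24e-05). *Tle2*, a co-repressor, fell from 27.3 to 8.36 CPM (log2 fold change -1.71, adjusted p = 4.52e-05), and *Bcl9*, which links β-catenin to *Pygo1*, from 64.6 to 38.2 CPM (log2 fold change -0.76, adjusted p = 9.17e-05). The kinase genes *Gsk3a*, *Gsk3b* and *Csnk1a1*, whose products phosphorylate β-catenin, were also lower, with log2 fold changes of -0.48, -0.25 and -0.48, and *Gsk3b* was not called without Yme1l siRNA replicate 1 (adjusted p = 0.0525). Activators and repressors of the pathway were thus both among the lower genes.

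In the planar polarity branch, 12 of 13 genes were tested, with 2 higher, 7 lower (beside 28.4% and 29.6% of all loci) and a median of -0.48. *Vangl1* and *Vangl2*, its core membrane proteins, fell from 48.8 to 30.2 CPM and from 28.4 to 16.8 CPM (log2 fold changes -0.69 and -0.76, adjusted p = 4.82e-05 and 0.000233). *Scrib*, a polarity scaffold, rose from 173 to 319 CPM (log2 fold change 0.88, adjusted p = 4.17e-05), and the other higher gene was the cadherin *Celsr1* (log2 fold change 1.27).

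The list of 20 known β-catenin targets had 13 tested genes, of which 7 were higher and 2 lower (beside 28.4% and 29.6% of all loci), with a median of 0.49 that moved to 0.32 without Scr replicate 3. *Ccnd1*, which encodes cyclin D1, rose from 215 ± 9.50 to 443 ± 14.6 CPM (log2 fold change 1.04, SE 0.07, adjusted p = 1.34e-05), and *Myc* from 109 to 221 CPM (log2 fold change 1.02, adjusted p = 4.26e-05). *Ccnd1* overlaps an annotated gene on the other strand. *Snai2*, a regulator of the mesenchymal state, fell from 49.8 to 26.4 CPM (log2 fold change -0.92, adjusted p = 1.82e-05). The other higher genes were *Znrf3*, *Apcdd1*, *Tnfrsf19*, *Wisp1* and *Fosl1*, and the other lower gene was *Twist1*, whose groups overlapped (log2 fold change -0.30, adjusted p = 0.0435). *Twist1* was called in only 2 of the 6 fits on 5 cultures, with its highest adjusted p, 0.157, without Yme1l siRNA replicate 1. *Tnfrsf19* passed the filter only through the Yme1l siRNA libraries. *Ccnd1*, *Myc* and *Fosl1* are known to respond to growth factor signalling as well, and the cause of the rises on this list was not tested. The feedback inhibitors *Axin2*, *Notum*, *Nkd1*, *Rnf43* and *Dkk1*, which are among the more specific targets, were under the filter, as were *Sp5* and *Lgr5*. *Znrf3* and *Apcdd1*, whose products also limit the pathway, were higher, as given above. *Lef1*, *Tcf7*, *Bambi* and *Tbx3* were not called.

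Several of the genes overlap another gene on the opposite strand. For *Ctnnb1* the overlapping gene *Ulk4* had between 94 and 390 counts, where *Ctnnb1* had at least 30916. For *Wnt7b* and *Fzd5* the overlapping genes had at most 2 counts in any library.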

How the data were processed

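RNA-Seq counts of 3 Scr and 3 Yme1l siRNA cultures of WT MEFs were analysed, with groups taken from the sample labels. Per the methods and the submitters' processing notes, the authors mapped reads of stranded poly(A) libraries to GRCm38 with HISAT2 2.0.4, assembled them with StringTie 1.3.3 and compared groups with Cuffdiff 2.2.1. The authors deposited whole-number read counts per locus without normalization. The counting program and its use of strand are not given in the sources used here. A second deposited table holds the authors' own comparison (group levels, fold changes and p-values) and was not used.

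Loci were filtered with filterByExpr (at least 10 counts and 15 in total, a level of 0.238 CPM) in edgeR 4.0.16, scaled by TMM and compared with the quasi-likelihood test, without covariates. The threshold was an adjusted p of 0.05 (Benjamini-Hochberg, 14499 loci). This count test took the place of the Cuffdiff comparison, which needs reads. The biological coefficient of variation was 0.131. Within groups, libraries differed beyond counting noise (chi-square over its degrees of freedom 9.7 to 69.9), so all 6 were kept as separate. Exon lengths and positions came from GENCODE M21 and promoter windows from RefSeq. Near-identical genes were searched with BLAST 2.17.0 (at least 97% identity over 100 bases), and the matches were overlapping genes on the other strand and, for *Wnt4*, matches of at most 139 bases. A limit of 3 counts was used for undetected genes and covers counting error only.

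The genes and lists were chosen with earlier results of these data known. Values per culture are given for genes called with at least a 2-fold change and, in each role, for the gene with the highest mean CPM and that with the smallest adjusted p. For the other pathway lists, the 3 genes with the smallest adjusted p are given, and further genes were named after their values were seen. Alternatives were RLE and upper-quartile factors, DESeq2 1.42.0, limma-voom (limma 3.58.1), other filters, a threshold of 0.01, a block for the replicate number, and fits without each library in turn. Leaving out replicate 3 of both groups and scaling without mtDNA loci were chosen after seeing the data. The edgeR step was tested on simulated data. Python 3.11.15 with numpy 2.4.6, pandas 2.3.3 and matplotlib 3.10.9 made the tables and plots.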

Additional observations from a re-analysis of the deposited data

How the results depend on the processing

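Of the 20 genes called, 13 kept their call and direction in every alternative fit that tested them at the threshold of 0.05 (*Wnt10b* was not tested with 1 CPM in 3 libraries), and *Fzd3*, *Fzd7*, *Lrp5*, *Sfrp1*, *Sfrp2*, *Sfrp4* and *Tcf7l1* lost the call under at least 1. Over all genes, settings and fits, 467 of 521 values kept direction and side of the threshold. When each library was left out in turn, between 8 and 10 of the Wnt pathway genes were higher and between 6 and 10 lower. Over all loci tested in these fits, between 3451 and 4133 were higher and between 3616 and 4312 lower. At an adjusted p under 0.01, 7 genes were higher and 5 lower, where 11 and 9 were at 0.05. The share of all loci past 0.01 is not given here, so these counts are not set against loci in general. Among genes not called, *Wnt11*, *Fzd8*, *Dkk3*, *Rspo1*, *Rspo2* and *Lef1* gained a call under at least 1 alternative. The changes of sign were all among genes not called. *Fzd4* became positive with RLE factors (0.001765), DESeq2 (0.001253), upper-quartile factors (0.01437), a filter of 1 CPM in 3 libraries (0.01487) and without replicate 3 of both groups (0.04727). Over the fits that each left out 1 library, values ranged from -0.0703 to 0.0522 for *Fzd4*, -0.363 to 0.08708 for *Wnt4* (0.07009 without Scr replicate 1), -0.2685 to 0.0195 for *Wnt9a*, -0.1255 to 0.08789 for *Apc*, -0.1341 to 0.16 for *Tcf7* and -0.008443 to 0.1572 for *Tcf7l2*. Without replicate 3 of both groups, *Wnt4* (0.1008), *Wnt9a* (0.05323) and *Tcf7* (-0.08508) also changed sign.

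The median log2 fold change of all loci was 0.0153 with RLE factors, 0.0281 with upper-quartile factors and 0.0750 without a filter. Without a filter, 4 secretion genes were higher and the medians were -0.2332 (secretion) and 0.2309 (β-catenin targets). With 1 CPM in 3 libraries they were -0.2457 and 0.366. The number of lower β-catenin targets was 1 with upper-quartile factors, with the 1 CPM filter and at an adjusted p under 0.01, and 4 without replicate 3 of both groups. At 0.01, 1 secretion gene and 0 transduction genes were higher. When each library was left out in turn, between 0 and 2 transduction genes and between 1 and 3 secretion genes were higher, and between 1 and 3 β-catenin targets were lower. The medians ranged from -0.3228 to -0.2706 (secretion) and from 0.318 to 0.5347 (β-catenin targets). The cause of these changes was not tested, apart from the number of genes that a filter or a stricter threshold leaves.

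The labels number the cultures of each group from 1 to 3 but do not tie a number to a shared day. Deviations from the group means correlated by 0.0409, 0.116 and 0.192 between cultures with the same number. Between cultures with different numbers the values ran from -0.181 to 0.0910. Each Yme1l siRNA culture correlated best with the Scr culture of its number, whereas Scr replicate 1 correlated best with Yme1l siRNA replicate 2 (0.0910). Because the labels give no pairing, the main fit treated the cultures as unpaired. With the replicate number as a block, 12 of the 35 Wnt pathway genes were higher and 12 lower, and 4 secretion genes were higher. Over all 14499 loci tested, 4227 were higher and 4460 lower with the same block. The genes that gained a call with this block were *Wnt11* (log2 fold change 0.30, adjusted p = 0.0479 from edgeR), *Fzd8* (-0.22, 0.0245), *Dkk3* (-0.25, 0.0223) and *Rspo2* (-0.45, 0.0101). Depth limits the genes under the filter, such as *Axin2* and *Wnt1*, for which no change could be tested.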

Other observations

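Replicate 3 had the lowest level of its group in both Scr and Yme1l siRNA cultures for 15 of the 35 genes tested (42.9%), among them *Fzd1*, *Wnt5b*, *Dkk3*, *Sfrp4*, *Rspo2* and *Rspo3*. Over all 14499 loci tested this was so for 18.1%. Replicate 1 was lowest in both groups for 2 of the 35 genes and replicate 2 for 5. The count was made after the values were seen and has no test.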
